A study of Mus musculus with 21 samples.

Results

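The genes *Ebf1*, *Ebf2*, *Ebf3*, *Prox1*, *Insm1*, *Myt1*, *Myt1l*, *St18*, *Scrt1* and *Scrt2* encode transcription factors of neuronal differentiation. They were taken by name from the 55400 genes of the table, through their Ensembl identifiers, and all 10 were found and passed the filter on low counts in every comparison. RNA-seq of poly(A) RNA was available for 21 libraries in 7 groups of 3 biological replicates, all from wild-type C57BL/6 mouse embryonic stem cells (mESCs) differentiated into motor neurons (MNs) as embryoid bodies. Every culture received 1 µM all-trans retinoic acid and 0.5 µM of the Sonic Hedgehog agonist SAG from day 2. The medium supplied at day 5 is described without these compounds, so D6 and D6+GSKJ4 cells spent their last day without them. For hypaxial motor column differentiation, 5 µM of the Notch pathway inhibitor DAPT was supplied at day 4 and again at day 5. The untreated groups were D4 (motor neuron progenitors, pMNs), D4H8 (8 h later, proneural MNs), D5 (newborn MNs) and D6 (MNs at the last stage). The groups D4H8+GSKJ4, D5+GSKJ4 and D6+GSKJ4 had in addition received GSKJ4, an inhibitor of the Kdm6 histone H3K27 demethylases, for the day before collection, at a concentration that the sources used here do not give. All groups were labelled as differentiated motor neuron, D4 included. The mESCs had been kept on mouse embryonic fibroblast feeders, and no sort before collection is described, so in each group a change in the number of cells of a type and a change in RNA per cell cannot be told apart.

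These factors act in cells that leave the cell cycle and become neurons, downstream of proneural basic helix-loop-helix (bHLH) factors such as Neurog2. Ebf proteins (early B cell factor, also called COE) bind DNA as dimers and activate genes of migrating and maturing neurons. Insm1 and the Scratch proteins Scrt1 and Scrt2 are zinc finger repressors that carry a SNAG domain, which recruits corepressors with the histone demethylase Kdm1a. Myt1, Myt1l and St18 share a rare class of zinc fingers, and Myt1 and Myt1l are known to repress Notch targets and genes of other lineages. Prox1, a homeodomain factor, is known to promote cell cycle exit and to oppose Notch signalling in neural progenitors.

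The positions below are those of the annotation on mm10. *Ebf1* lies on chr11:44617317-45008091, *Ebf2* on chr14:67233292-67430918, *Ebf3* on chr7:137193673-137314445 and *Prox1* on chr1:190118035-190170714. *Insm1* lies on chr2:146221921-146225020, *Myt1* on chr2:181763332-181827797 and *Scrt2* on chr2:152081529-152095802. *Myt1l* lies on chr12:29528384-29923213, *St18* on chr1:6487231-6860940 and *Scrt1* on chr15:76516203-76522499. Both *Prox1* and *St18* lie on the same chromosome, as do *Insm1*, *Myt1* and *Scrt2*. The spans ran from 3.1 kb for *Insm1* to 394.8 kb for *Myt1l*.

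RefSeq promoter windows (GRCm38.p6) were available for 5 of the genes: *Ebf1*, *Ebf3*, *Prox1*, *Myt1* and *Myt1l*. The 250 bases before 4 of their start sites are shown because these genes rose together at the first step described below, and because they hold different numbers of E-boxes, the sites that bHLH factors bind. For genes with several starts, the window free of annotated exons was taken, and for *Myt1*, which has 3 such windows, the one at the start of the annotated gene. The windows are chr7:137314446-137314695 (minus strand) for *Ebf3*, chr2:181763082-181763331 (plus strand) for *Myt1*, chr12:29533135-29533384 (plus strand) for *Myt1l* and chr1:190170828-190171077 (minus strand) for *Prox1*. Each is written 5′ to 3′ on the strand of the gene, and capitals mark every match to the E-box CANNTG.
Ebf3: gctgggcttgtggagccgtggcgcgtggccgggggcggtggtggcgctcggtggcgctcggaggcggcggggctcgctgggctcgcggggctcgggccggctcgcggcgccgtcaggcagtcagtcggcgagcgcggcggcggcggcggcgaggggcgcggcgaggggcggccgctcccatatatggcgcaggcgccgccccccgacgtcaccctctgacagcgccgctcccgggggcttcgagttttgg
Myt1: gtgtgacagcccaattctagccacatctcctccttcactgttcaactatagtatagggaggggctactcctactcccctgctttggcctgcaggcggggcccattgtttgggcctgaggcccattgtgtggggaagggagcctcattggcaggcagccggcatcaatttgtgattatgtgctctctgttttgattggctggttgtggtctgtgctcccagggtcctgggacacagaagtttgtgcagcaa
Myt1l: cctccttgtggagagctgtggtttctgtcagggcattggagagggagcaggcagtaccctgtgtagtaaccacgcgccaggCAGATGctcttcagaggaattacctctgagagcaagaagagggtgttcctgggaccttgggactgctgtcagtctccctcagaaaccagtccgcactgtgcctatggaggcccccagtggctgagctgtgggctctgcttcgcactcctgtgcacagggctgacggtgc
Prox1: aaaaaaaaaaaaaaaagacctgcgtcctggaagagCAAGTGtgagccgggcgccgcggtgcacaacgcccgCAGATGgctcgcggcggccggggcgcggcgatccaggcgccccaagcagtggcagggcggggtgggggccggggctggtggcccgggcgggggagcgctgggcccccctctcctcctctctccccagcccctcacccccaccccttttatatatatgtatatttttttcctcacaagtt

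The *Prox1* window held 2 E-boxes and the *Myt1l* window held 1, and each included 1 of the kind CAGATG. The *Ebf3* window and the *Myt1* window shown held none, and the other exon-free windows of *Myt1* held 2 and 1. The windows set aside because they overlap an annotated exon on either strand held 3, 0, 1 and 3 for *Myt1l* and 0 for *Prox1*. The exon-free window of *Ebf1*, which is not shown, held 1. Over all 32851 RefSeq windows of this length, searched on both strands, 66.2% held CANNTG and 14.4% held the more specific CAGATG, which every CANNTG count includes. GC content was 80.0% in the *Ebf3* window, 64.8% for *Prox1*, 59.2% for *Myt1l* and 54.8% for *Myt1*, against a median of 52.4% over all windows. These matches describe the letters of the windows only.

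Total counts ran from 14982115 to 34383842 per library, with a median of 16238435. D4H8 replicate 1 was the deepest library, and it had the highest level of all 10 genes within its group. D5+GSKJ4 replicate 2 had 39381 genes at 0, against 29339 to 32805 in the other libraries. D4H8+GSKJ4 replicate 1 had the highest level of 9 of the 10 genes in that group. Levels are given as FPKM (fragments per kilobase of exon, scaled to library depth), which allows genes of different length to be compared. Log2 fold changes come from the quasi-likelihood test of edgeR on the counts and are relative to all genes, whose median change lay between -0.057 and 0.055 on the log2 scale in every comparison.

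**Figure D1:**
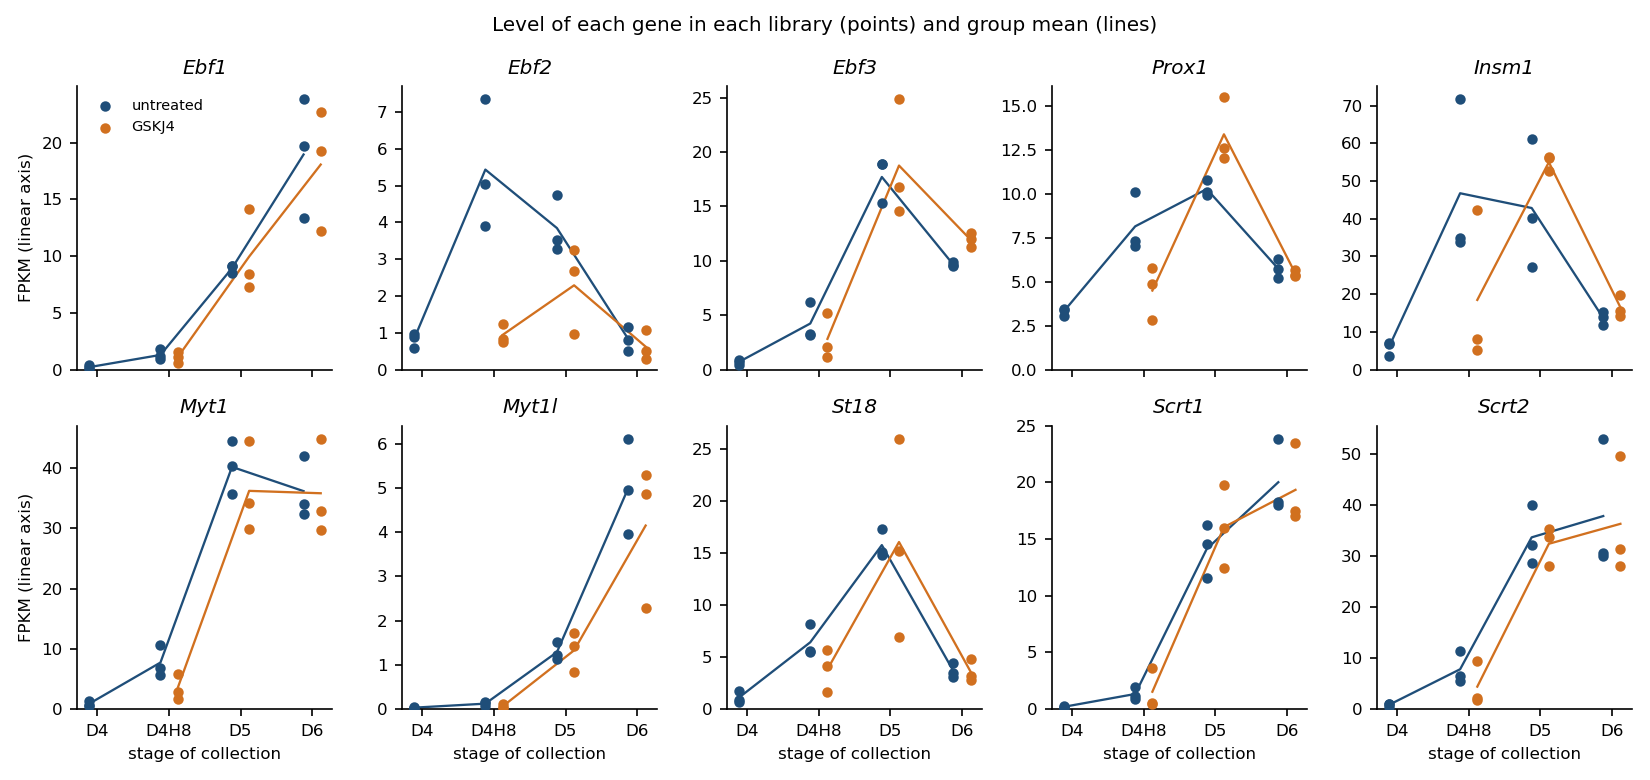
FPKM (linear axis, scaled separately for each gene) of the 10 genes by stage, with 1 point per library, lines through the means of 3 libraries, untreated in blue and GSKJ4 in orange. *Ebf2* and *Insm1* had their highest untreated mean at D4H8, *Ebf3*, *Prox1*, *Myt1* and *St18* at D5, and *Ebf1*, *Myt1l*, *Scrt1* and *Scrt2* at D6.

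The first step, from D4 to D4H8, showed whether the factors appear as progenitors begin neurogenesis. All 10 genes were higher at D4H8, by 2.4-fold for *Prox1* to 10-fold for *Scrt2*, and all passed the threshold (edgeR's quasi-likelihood test, adjusted p under 0.05). Of all 17519 genes tested, 4.06% were called higher and 0.32% lower. The 3 D4H8 libraries lay above the 3 D4 libraries for each of the 10 genes, as they did for 15.9% of all genes. The median change of the 10 genes was 2.71 on the log2 scale, beside -0.02 over all genes. DAPT was supplied at day 4, and whether the D4 cells were collected before or after that is not given in the sources used here, so the passage of time and exposure to DAPT cannot be told apart.

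*Insm1*, the repressor of the group with the highest level at this step, measured 3.48, 6.79 and 6.96 FPKM at D4 and 71.8, 33.7 and 34.8 FPKM at D4H8. Its log2 fold change was 3.01 (SE 0.360, adjusted p = 0.000155 by edgeR). *Scrt2* measured 0.39, 1.05 and 0.93 FPKM at D4 and 11.4, 6.42 and 5.58 FPKM at D4H8, a log2 change of 3.32 (SE 0.380, adjusted p = 0.000121). The D4 libraries held 30 to 61 counts of *Scrt2*, so that its fold carries more counting error than its D4H8 level. *Scrt1*, its paralog, was lower at both stages, with 12 to 17 counts per library at D4 and a mean of 1.33 FPKM at D4H8 (SD 0.581, n = 3), and rose by 2.80 on the log2 scale (SE 0.360).

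The Ebf genes rose by nearly the same factor. *Ebf2* measured 0.58, 0.89 and 0.98 FPKM at D4 and 7.36, 5.04 and 3.91 FPKM at D4H8, a change of 2.72 on the log2 scale (SE 0.301, adjusted p = 0.000101 by edgeR). *Ebf3* rose by 2.61 (SE 0.279) from a mean of 0.689 FPKM to 4.23 FPKM. *Ebf1* rose by 2.70 (SE 0.430) but remained low, at 1.29 FPKM (SD 0.447, n = 3).

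*Myt1* measured 0.52, 1.38 and 0.68 FPKM at D4 and 10.6, 6.84 and 5.72 FPKM at D4H8, and rose by 3.15 on the log2 scale (SE 0.317, adjusted p = 4.83e-05 by edgeR). *St18* rose by 2.54 (SE 0.288), from a mean of 1.09 to 6.43 FPKM. *Myt1l* was close to absent at both stages, with 5 to 14 counts per library at D4 and 0.17, 0.13 and 0.08 FPKM at D4H8. Its rise of 1.90 (SE 0.393, adjusted p = 0.0124) was the one call that depended on single libraries: the adjusted p was 0.112 without D4H8 replicate 1, 0.0604 without D4 replicate 2 and 0.051 without D4 replicate 3. In one fit over all 21 libraries it was 0.0759. *Prox1* was already present at D4, at 3.08, 3.45 and 3.38 FPKM, and measured 10.1, 7.03 and 7.35 FPKM at D4H8, the smallest rise of the 10 genes (1.26, SE 0.150, adjusted p = 0.000155).

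**Figure D2:**
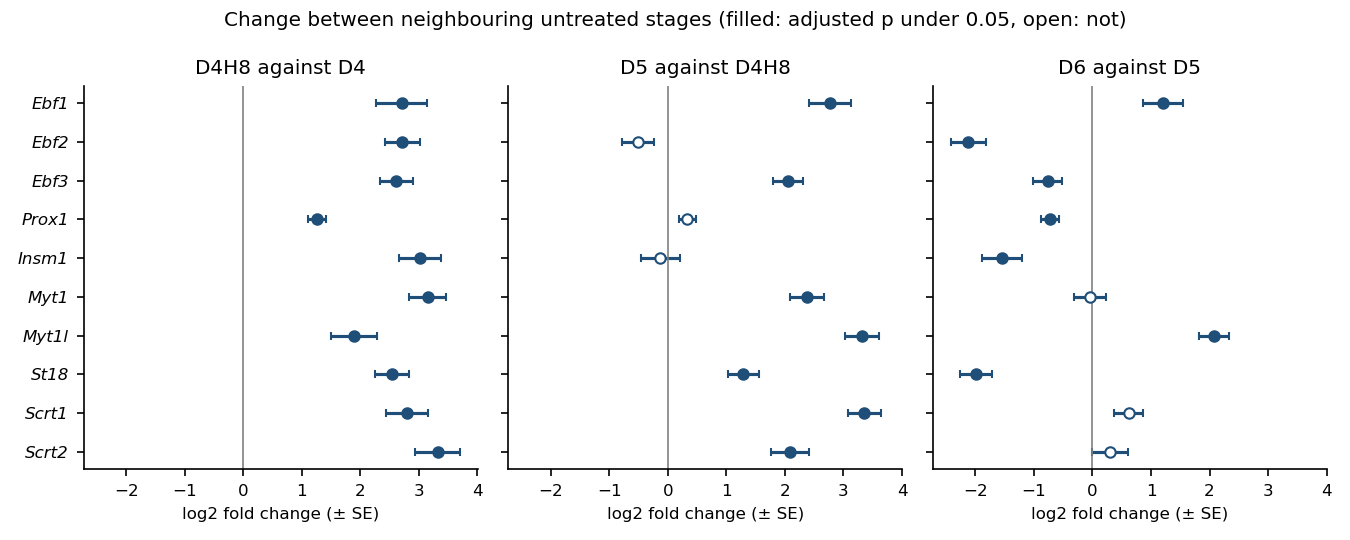
Log2 fold change (x axis, with SE bars) of each gene (y axis) at the 3 steps between neighbouring untreated stages, from edgeR. At the first step all 10 points are filled and to the right of 0, at the second 7 are, and at the third *Ebf1* and *Myt1l* are filled to the right and 5 genes to the left.

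From D4H8 to D5 the genes separated. *Ebf1*, *Ebf3*, *Myt1*, *Myt1l*, *St18*, *Scrt1* and *Scrt2* rose again (7 of 10 called higher by edgeR and none lower, where 17.2% of all genes were called higher and 10.5% lower), and *Ebf2*, *Prox1* and *Insm1* did not pass the test. The 3 D5 libraries lay above the 3 D4H8 libraries for 7 of the genes, against 24.2% of all genes.

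*Scrt1* measured 16.2, 11.6 and 14.6 FPKM at D5, a log2 change of 3.36 from D4H8 (SE 0.283, adjusted p = 1.51e-06 by edgeR). *Myt1l* measured 1.51, 1.23 and 1.12 FPKM (3.32, SE 0.289), and *Ebf1* 9.17, 9.11 and 8.51 FPKM (2.77, SE 0.365). These were the genes of lowest level at D4H8, and they had the steepest second rise. *Myt1* reached 44.5, 35.7 and 40.4 FPKM (2.37, SE 0.290), *Scrt2* 32.2, 28.7 and 40.0 FPKM (2.09, SE 0.324) and *Ebf3* 15.3, 18.9 and 18.9 FPKM (2.05, SE 0.258). *St18* rose least among the genes called, by 1.29 (SE 0.264), to 15.1, 14.9 and 17.4 FPKM.

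*Insm1* measured 61.2, 27.2 and 40.1 FPKM at D5, overlapping its D4H8 values, and the difference was -0.13 on the log2 scale (SE 0.328, adjusted p = 0.814 by edgeR). *Ebf2* measured 3.28, 3.52 and 4.74 FPKM at D5, and its difference of -0.51 (SE 0.276, adjusted p = 0.194) did not pass the test. *Prox1* measured 9.93, 10.8 and 10.1 FPKM. Its difference of 0.33 (SE 0.147) had an adjusted p of 0.113, and of 0.00804 without D4H8 replicate 1.

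From D5 to D6, 2 genes were called higher and 5 lower by edgeR, where 19.2% of all genes were called higher and 15.1% lower. *Ebf1* and *Myt1l* rose, and *Ebf2*, *Ebf3*, *Prox1*, *Insm1* and *St18* fell. The D6 libraries lay below the D5 libraries for these 5 genes, as for 26.9% of all genes. Retinoic acid and SAG were absent from the medium supplied at day 5. In comparisons of D6 with earlier stages, with or without GSKJ4, the passage of time and this withdrawal cannot be told apart.

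*Ebf2* measured 0.50, 0.81 and 1.16 FPKM at D6, and fell by 2.12 on the log2 scale (SE 0.299, adjusted p = 0.000134 by edgeR). *St18* measured 3.11, 3.45 and 4.44 FPKM and fell by 2.00 (SE 0.272). *Insm1* measured 11.8, 15.2 and 14.0 FPKM and fell by 1.55 (SE 0.339), and *Prox1* measured 5.72, 6.29 and 5.22 FPKM and fell by 0.73 (SE 0.148). *Ebf3* measured 9.57, 9.84 and 9.49 FPKM and fell by 0.76 (SE 0.249, adjusted p = 0.0299). That last call was lost when any of 5 libraries was left out, with adjusted p = 0.0771 without D5 replicate 2, 0.0722 without D5 replicate 3, 0.0631 without D6 replicate 1, 0.0729 without D6 replicate 2 and 0.0766 without D6 replicate 3, although the 2 groups did not overlap. In one fit over all 21 libraries the call was lost as well (adjusted p = 0.133).

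*Myt1l*, which is expressed in postmitotic neurons, measured 6.10, 4.95 and 3.96 FPKM at D6 and rose by 2.08 on the log2 scale (SE 0.251, adjusted p = 4e-05 by edgeR). *Ebf1* measured 23.8, 13.3 and 19.7 FPKM and rose by 1.21 (SE 0.339, adjusted p = 0.0141). Its adjusted p was 0.0629 by DESeq2, 0.0599 without D6 replicate 1 and 0.0539 without D5 replicate 3. *Scrt1* measured 23.8, 17.97 and 18.2 FPKM and lay above D5 in every library. Its change of 0.62 (SE 0.251) had an adjusted p of 0.0721, and of 0.028 with the replicate number as a block, a pairing that held for D5 and D6. It was 0.0237 without D4H8 replicate 1 and 0.0447 without D4H8 replicate 3, which enter the shared fit. *Myt1* (42.1, 32.3 and 34.1 FPKM) and *Scrt2* (52.9, 29.9 and 30.6 FPKM) overlapped their D5 values, with log2 differences of -0.04 (SE 0.275) and 0.30 (SE 0.309).

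Over the whole course, D6 against D4, 9 genes were higher and *Ebf2* did not pass the test, where 32.9% of all genes were called higher and 31% lower. The log2 changes ran from 7.29 for *Myt1l* (SE 0.356), 6.78 for *Scrt1* (SE 0.359) and 6.68 for *Ebf1* (SE 0.457) down to 1.83 for *St18* (SE 0.286), 1.34 for *Insm1* (SE 0.346) and 0.87 for *Prox1* (SE 0.150). *Ebf2* stood at 0.821 FPKM at D6 (SD 0.333, n = 3) and 0.814 FPKM at D4 (SD 0.210, n = 3), a log2 difference of 0.08 (SE 0.304, adjusted p = 0.822 by edgeR). In mean FPKM, *Insm1* was the highest of the 10 genes at D4H8 and D5, where at D5 its libraries overlapped those of *Myt1*, and *Scrt2* and *Myt1*, which overlapped, were the highest at D6. *Myt1l* was the lowest at D4, D4H8 and D5, and *Ebf2* was the lowest at D6.

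Shares of the Ebf genes were taken within the FPKM summed over all 4 paralogs, *Ebf4* included, which is not one of the 10 genes. *Ebf4* measured 3.603, 4.88 and 6.85 FPKM at D4 and 5.87, 6.86 and 5.71 FPKM at D4H8. It was the most abundant paralog in every D4 library, and at D4H8 its libraries overlapped those of *Ebf2*. *Ebf4* was not called at the first step or at the second, and rose by 0.81 at the third (SE 0.200, adjusted p = 0.00676 by edgeR), to a mean of 10.7 FPKM (SD 2.13, n = 3).

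The share of *Ebf4* was 75.0% at D4 (SD 3.65, n = 3) and 37.1% by D4H8 (SD 8.22), then 17.9% at D5 (SD 1.61) and 26.6% at D6 (SD 1.6). *Ebf2* had 12.1% in the D4 libraries (SD 1.0) and 31.3% in those of D4H8 (SD 3.08), and later 10.3% at D5 (SD 1.55) and 2.13% at D6 (SD 0.95). *Ebf3* had the highest share at D5, 47.6% (SD 2.92), and *Ebf1* at D6, 46.7% (SD 5.45). None of the 4 shares overlapped between neighbouring stages (two-sided exact permutation p = 0.1 each, the smallest that 3 against 3 allows). The summed level of the 4 paralogs was 6.82, 17.1, 37.1 and 40.1 FPKM at the 4 stages. With *Ebf4* left out of the sum, the *Ebf2* share was 48.8% at D4 and 49.98% at D4H8 and overlapped between them.

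Among *Myt1*, *Myt1l* and *St18*, the share of *Myt1* rose from 43.4% at D4 (SD 0.91, n = 3) to 53.7% at D4H8 (SD 2.66), 70.1% at D5 (SD 2.34) and 80.6% at D6 (SD 1.36), without overlap at any step (exact permutation p = 0.1 each). *St18* averaged 54.6% at D4 and 8.32% at D6, and *Myt1l* reached 11.1% at D6 (SD 1.56). *Scrt1* had 14.5% of the Scratch FPKM at D4H8 (SD 1.1) and 29.6% at D5 (SD 3.49), and *Scrt2* was the more abundant paralog in all 21 libraries.

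**Figure D3:**
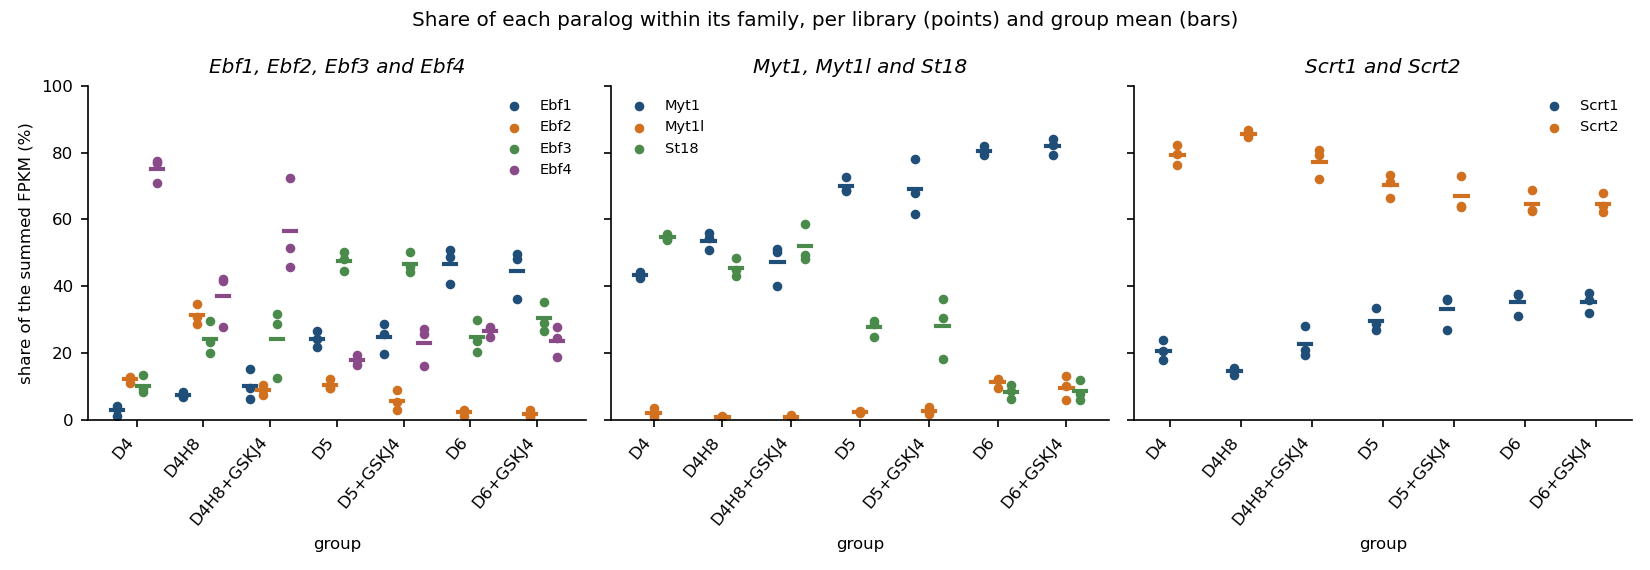
Share of each paralog in the summed FPKM of its family (y axis, percent) in the 7 groups, with 1 point per library and bars for the means of 3. For the Ebf genes the sum holds all 4 paralogs, and the *Ebf2* share lies between 28.5% and 34.6% in the D4H8 libraries and between 7.45% and 10.5% in the D4H8+GSKJ4 libraries, and the *Myt1* share rises at each untreated step.

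GSKJ4 was compared with no treatment at D4H8, D5 and D6 to ask whether demethylase activity bears on these genes at each stage. At D4H8, *Ebf2* was lower with the inhibitor and was the single gene of the 10 to pass the test. Its 3 treated libraries measured 1.23, 0.76 and 0.84 FPKM, against 7.36, 5.04 and 3.91 FPKM untreated. The treated values overlapped those of D4, before the rise, and the groups with and without GSKJ4 did not overlap. *Ebf2* fell by 2.58 on the log2 scale, which is 5.99-fold (SE 0.310, adjusted p = 0.00758 by edgeR), and it was called in all 13 alternatives, with adjusted p from 2.12e-16 to 0.0291. Of 16269 genes tested, 1.85% were called lower and 2.11% higher, so that 1 gene of 10 is little above the background by count. With any of the 3 untreated D4H8 libraries left out, 41 to 47 of all genes were called lower and 2 to 3 higher, and *Ebf2* was among those lower each time.

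Of the other 9 genes, 8 had an estimate below 0, and the median of the 10 was -0.90 on the log2 scale, beside 0.02 over all genes, of which 48.3% lay below 0. *Prox1* measured 5.80, 4.88 and 2.82 FPKM with GSKJ4, below all 3 untreated libraries, with a log2 difference of -0.89 (SE 0.294, adjusted p = 0.105 by edgeR). Groups without overlap in that direction were found for *Ebf2* and *Prox1*, and for 14.3% of all genes. *Myt1* measured 5.83, 2.82 and 1.74 FPKM (-1.20, SE 0.417, adjusted p = 0.117). With DESeq2, *Ebf2*, *Prox1* and *Myt1* were called, as they were in a fit over all 21 libraries, where 837 and 990 of all genes were called lower in turn.

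*Insm1* measured 42.3, 5.16 and 7.98 FPKM with GSKJ4, so that replicate 1 lay within the untreated range and the others below it. *Scrt2* showed the same split, with 9.38, 1.68 and 2.14 FPKM. *Scrt1* measured 3.64, 0.44 and 0.51 FPKM, with replicate 1 above all untreated libraries and the others below them. The log2 differences were -1.42 for *Insm1* (SE 0.677), -0.90 for *Scrt2* (SE 0.584) and 0.11 for *Scrt1* (SE 0.728), none of which passed the test. Without D4H8+GSKJ4 replicate 1, 4 genes were called lower, namely *Ebf2*, *Insm1* (-2.88, adjusted p = 0.0161), *Myt1* (-1.76, adjusted p = 0.0473) and *Scrt2* (-2.07, adjusted p = 0.0342), where 348 of all genes were called lower and 193 higher, in place of 301 and 343. The same library had the highest summed pan-neuronal level of its group, 368 FPKM against 167 and 123.5 FPKM, and the highest summed proneural bHLH level, 78.5 FPKM against 29.4 and 26.7 FPKM. What part these play in the values of replicate 1 was not tested.

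*Ebf1* (1.56, 1.09 and 0.57 FPKM) and *Ebf3* (5.205, 2.08 and 1.17 FPKM) overlapped their untreated values, with log2 differences of -0.30 (SE 0.404) and -0.64 (SE 0.495). The *Ebf2* share of the level summed over the 4 Ebf paralogs was 8.95% with GSKJ4 (SD 1.51, n = 3) and 31.3% without, and the groups did not overlap (two-sided exact permutation p = 0.1, the smallest possible). With *Ebf4*, which did not pass the test (-0.05, SE 0.295, adjusted p = 0.938 by edgeR), left out of the sum, the shares were 22.4% (SD 8.95) and 49.98% (SD 2.92), again without overlap. The *Scrt1* share of the Scratch level was 22.6% with GSKJ4 (SD 4.67) and 14.5% without, also without overlap (exact permutation p = 0.1). *St18* (5.70, 4.14 and 1.64 FPKM) and *Myt1l*, with at most 25 counts per treated library, did not pass the test, with -0.78 (SE 0.405) and -1.07 (SE 0.603).

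**Figure D4:**
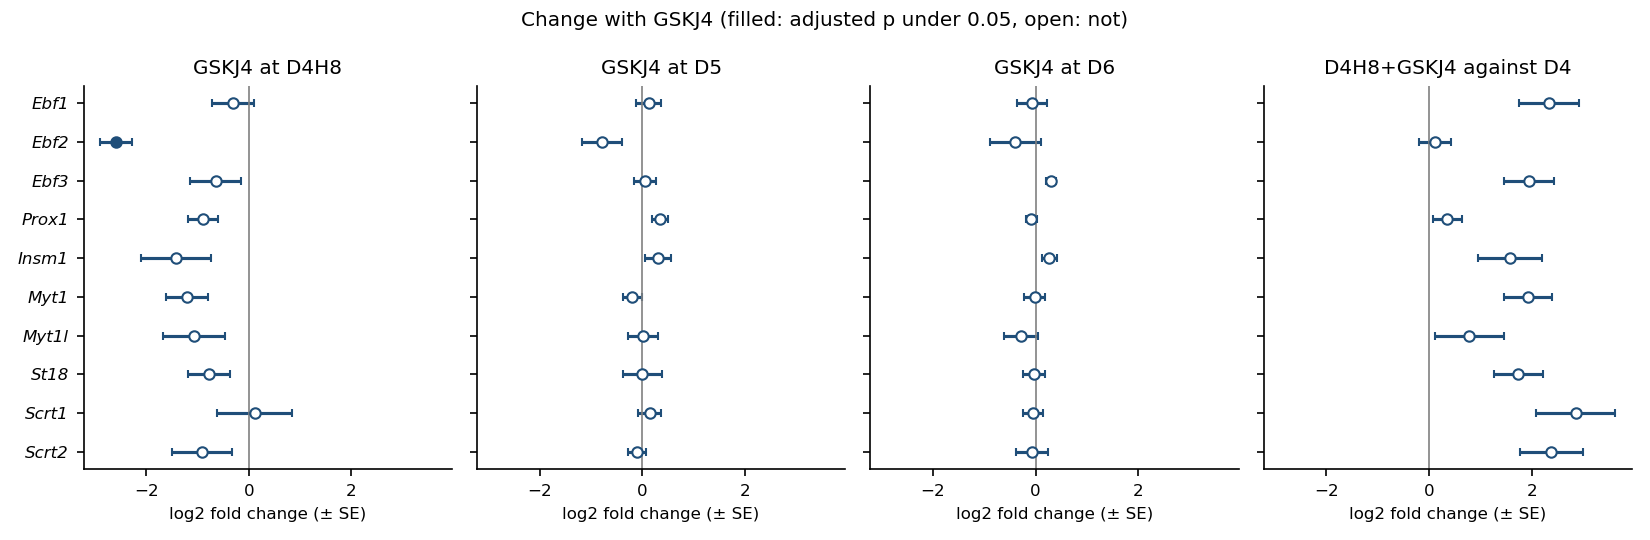
Log2 fold change (x axis, with SE bars) of each gene (y axis) with GSKJ4 against without at D4H8, D5 and D6, and of D4H8+GSKJ4 against D4, from edgeR. The single filled point is *Ebf2* at D4H8, and *Ebf2* lies next to 0 when D4H8+GSKJ4 is set against D4.

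Set against D4 itself, the D4H8+GSKJ4 libraries had *Ebf2* at a log2 difference of 0.12 (SE 0.315, adjusted p = 0.852 by edgeR) and *Prox1* at 0.36 (SE 0.279, adjusted p = 0.467). *Ebf1*, *Ebf3*, *Myt1*, *St18*, *Scrt1* and *Scrt2* were higher by 1.74 to 2.86, with adjusted p between 0.0570 and 0.0725, so that none of the 10 was called, where 1.08% of all genes were called higher and 1.02% lower. At an unadjusted p under 0.05 there were 7 genes, against 24% of all genes in either direction. DESeq2 called 6 genes, all higher, where it called 868 of all genes higher and 839 lower, in place of 175 and 165 by edgeR. Without D4H8+GSKJ4 replicate 3, 6 were called higher, where 365 of all genes were higher and 242 lower. Leaving out D4H8+GSKJ4 replicate 2 gave 2 calls, *Scrt1* and *Scrt2*, where 628 of all genes were called higher and 474 lower. This comparison shares the treated libraries with the one at D4H8, and its treated cells had received GSKJ4 before D4.

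At D5 and at D6 none of the 10 genes was called with GSKJ4 by edgeR or by DESeq2. The background by edgeR without a block for the replicate number was as low. At D5, 0.00613% of 16309 genes were called higher and 0% lower, and at D6 0% of 16301 genes in either direction. At D5, *Ebf2* measured 2.67, 0.96 and 3.24 FPKM with GSKJ4, below all untreated libraries (-0.78, SE 0.386, adjusted p = 0.976), and *Prox1* measured 15.5, 12.6 and 12.1 FPKM, above all of them (0.34, SE 0.159, adjusted p = 0.976). These were the 2 genes without overlap, and 11.6% of all genes had none. None of the 10 had an unadjusted p under 0.05 at D5, beside 4.7% of all genes. At D6, *Ebf3* measured 12.6, 11.96 and 11.3 FPKM with GSKJ4, above all 3 untreated libraries, and was the single one of the 10 with an unadjusted p under 0.05, beside 1.36% of all genes (0.30, SE 0.097, adjusted p = 1 by edgeR). With the replicate number as a block, a pairing that held at D6, *Ebf3* was called with an adjusted p of 0.0025. With that block, 48 of all genes were called higher at D6 and 209 lower. *Ebf2* at D6 measured 0.51, 0.29 and 1.07 FPKM with GSKJ4, overlapping the untreated values.

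The effect of GSKJ4 at D5 minus that at D4H8 was tested directly in 18 libraries. For *Ebf2* this difference was 1.81 on the log2 scale (SE 0.626, adjusted p = 0.316 by edgeR), and for *Prox1* 1.22 (SE 0.336, adjusted p = 0.167). At D6 minus D4H8 it was 2.20 for *Ebf2* (SE 0.648, adjusted p = 0.130). None of the 10 genes was called in these tests, where 0.249% and 0.735% of all genes were called in either direction, and 3 and 4 of the 10 had an unadjusted p under 0.05, beside 10% and 13.7% of all genes. DESeq2 called 1 gene in each, *Prox1* in the first and *Ebf2* in the second, where it called 158 and 292 of all genes higher and 80 and 290 lower. A smaller effect of GSKJ4 on *Ebf2* at D5 and D6 than at D4H8 was therefore not established by edgeR's test with the filter on low counts. With no filter, edgeR called 4 of the 10 in each, *Ebf2* included. Of all genes, 245 and 414 were then called higher and 106 and 212 lower. With the filter kept, leaving out D4H8+GSKJ4 replicate 2 or 3 gave no call among the 10 in either. Of all genes, 30 and 21 were then higher and 2 and 8 lower in the first. In the second, 86 and 119 were higher and 36 and 161 lower. Without D4H8+GSKJ4 replicate 1, *Insm1* was called in the first (adjusted p = 0.00187) and *Insm1* (adjusted p = 0.00161) and *Scrt2* (adjusted p = 0.0457) in the second, where 159 and 234 of all genes were called higher and 13 and 50 lower. For D6 minus D5 none of the 10 was called by edgeR or DESeq2 or had an unadjusted p under 0.05, beside 0% and 1.98% of all genes.

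In the presence of GSKJ4 the step from D4H8 to D5 was positive for all 10 genes, and 8 were called higher by edgeR, where 9.59% of all genes were called higher and 4.65% lower. *Prox1*, at 1.54 on the log2 scale (SE 0.277, adjusted p = 0.00373), was among them, beside 0.33 (SE 0.147) in untreated cells. *Ebf2* (1.28, SE 0.526) and *Insm1* (1.57, SE 0.583) had adjusted p values of 0.131 and 0.0941. *St18* was called with an adjusted p of 0.0225, and was no longer called without D4H8+GSKJ4 replicate 2, D4H8+GSKJ4 replicate 3 or D5+GSKJ4 replicate 1 (7 genes each). Of all genes, 1409, 1169 and 996 were then called higher and 548, 608 and 128 lower, in place of 1651 and 801. *Insm1* was called when D4H8+GSKJ4 replicate 1 was left out, and *Ebf2* when D5+GSKJ4 replicate 2 was (9 genes each). There, 1607 and 1731 of all genes were called higher and 667 and 468 lower. From D5 to D6 with GSKJ4, *Myt1l* rose (1.76, SE 0.455) and *Prox1* (-1.18, SE 0.274) and *St18* (-2.07, SE 0.521) fell, where 7.24% of all genes were called higher and 4.7% lower. With the replicate block, *Ebf1* (adjusted p = 0.0404) and *Ebf2* (adjusted p = 0.0234) were called too, where 1491 of all genes were called higher and 1052 lower. That block spanned all 9 GSKJ4 libraries. The pairing held for D5+GSKJ4 with D6+GSKJ4, but not for D4H8+GSKJ4 with either. None of the 10 was called without D6+GSKJ4 replicate 1 or without D6+GSKJ4 replicate 2, where 536 and 676 of all genes were called higher and 201 and 250 lower. Without D5+GSKJ4 replicate 1, 1 was called (*Myt1l*), and 1 without D5+GSKJ4 replicate 3 (*Prox1*), where 1163 and 535 of all genes were higher and 715 and 252 lower. With every library kept, 1247 of all genes were called higher and 810 lower. The call of *Myt1l* was also lost without D5+GSKJ4 replicate 2, and that of *Prox1* without D6+GSKJ4 replicate 3.

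The proneural and neuronal bHLH genes rose at the first step as the 10 genes did, and an order between them was not tested. Of 8 tested, 7 were called higher at D4H8 than at D4, with a median of 2.47 on the log2 scale. *Neurog2*, the main proneural factor of MN progenitors, rose by 2.43 (SE 0.215) and *Neurog1* by 3.01 (SE 0.318). From D5 to D6, 6 of the 8 fell and 1 rose, with *Neurog2* at -3.61 (SE 0.238) and *Neurod4* at -4.24 (SE 0.300). With GSKJ4 at D4H8, 4 of 7 tested were lower, among them *Neurog2* (-3.97, SE 0.306, adjusted p = 0.0027 by edgeR), *Neurog1* (-3.75, SE 0.663) and *Neurod4* (-2.76, SE 0.419). *Nhlh2* did not pass the test there (-1.54, SE 0.521, adjusted p = 0.110).

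Of 13 genes of the Notch pathway, 5 rose from D4 to D4H8, among them the ligand genes *Dll1* (2.24, SE 0.197) and *Dll3* (2.69, SE 0.328). From D4H8 to D5, 7 fell and 1 rose, with *Dll1* at -1.36 (SE 0.191) and the target *Hes1* at -0.72 (SE 0.173). With GSKJ4 at D4H8, 6 were lower and none higher, including *Dll1* (-3.34, SE 0.518) and *Hes6* (-2.26, SE 0.503), and *Hes1* did not pass the test (-0.10, SE 0.260). The target *Hes5* differed from *Hes1*. It measured 4.995 to 15.9 FPKM at untreated D4H8, 0.42 to 1.615 FPKM at D4H8+GSKJ4 and 0.38 to 0.661 FPKM at untreated D5. DAPT was present in these cultures from day 4 on.

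Of 12 genes for corepressors that SNAG factors recruit and for RE1 silencing, 2 rose at the first step, with *Rcor2* at 0.79 (SE 0.119), and 1 fell with GSKJ4 at D4H8, again *Rcor2* (-1.25, SE 0.251, adjusted p = 0.0331 by edgeR). *Kdm1a*, *Hdac1* and *Hdac2* averaged 52.1 to 64.8 FPKM over the 21 libraries. The Ebf-binding zinc finger genes *Zfp423* and *Zfp521* were not called in the first step, in the second or with GSKJ4 at any stage. Of 5 other paralogs tested (*Ebf4*, *Snai1*, *Prox2* and *Snai3* among them), none was called at the first step or with GSKJ4.

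All 13 pan-neuronal genes rose at each of the first 2 steps and 10 rose at the third, with *Nefl* at 3.04 (SE 0.186), 4.08 (SE 0.188) and 1.46 (SE 0.169). None was called with GSKJ4 at D4H8, where *Tubb3* stood at -1.15 (SE 0.397, adjusted p = 0.117 by edgeR). Of 7 motor neuron markers, 5 rose at the first step, 7 at the second and 6 at the third, and 2 of 6 tested fell with GSKJ4 at D4H8, among them *Isl1* (-2.44, SE 0.320). Of 5 progenitor markers, 3 rose at the first step and 3 fell with GSKJ4 at D4H8, with *Olig2* at -3.91 (SE 0.514) and *Nkx6-1* at -2.22 (SE 0.472). The summed motor neuron level was 7.45 to 18.03 FPKM at D4, 50.9 to 57.5 FPKM at D4H8 and 441 to 509 FPKM at D6, so that the D4 libraries, although labelled as motor neuron, were low in its markers.

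Markers of other cells were also measured. The 6 feeder fibroblast genes summed to 3.7 to 16.3 FPKM at D4, 5.2 to 12.7 FPKM at D4H8, 8.7 to 26.0 FPKM at D4H8+GSKJ4 and 11.5 to 25.8 FPKM at D6, and none was called at the first step or with GSKJ4. The 6 pluripotent cell genes summed to 123.2 to 290.9 FPKM at D4 and 57.2 to 243 FPKM at D4H8, with none called at either. In every group replicate 1 had the lowest pluripotent sum, at D6 13.95 FPKM against 105.3 and 95.2 FPKM. What part the feeder fibroblast and pluripotent levels play in the results was not tested. *Prox1* and *Ebf1* are also known from lymphatic endothelium and B cells. The lymphatic gene *Lyve1* reached at most 0.102 FPKM in any library. The 6 genes of blood and lymphatic endothelium, *Lyve1* and *Flt4* included, summed to 2.11 to 4.5 FPKM at D4H8. At D4H8+GSKJ4 they summed to 5.69 to 7.38 FPKM, without overlap. Among 5 endothelial genes tested, 1 rose at the first step and 1 (*Flt4*, 1.59, SE 0.244) with GSKJ4 at D4H8, and the single B cell gene tested, *Pax5*, rose at the first step (1.87 on the log2 scale) and was not called with GSKJ4. Of 4 oligodendrocyte lineage genes, none was called at the first step and 1 of 3 was higher with GSKJ4 at D4H8. Of 5 spinal interneuron genes none was called at the first step, and 1 of 2 tested was lower with GSKJ4. Of 4 sensory neuron genes, 3 rose at the first step and none was called with GSKJ4, and no microglial gene was called in either.

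The genes closest in course to each member over the 21 libraries, by Pearson's r of log2 CPM (counts scaled to library depth) among 11129 genes, describe the same split. The points share stages and libraries, so r carries no test. *Ebf1* was closest to *Chrna5* (r = 0.991) and *Stmn2* (r = 0.989), *Myt1l* to *Astn1* (r = 0.991), *Scrt1* to *Spns2* (r = 0.993) and *Myt1* to *Clvs1* (r = 0.990) and *Elavl4* (r = 0.989). *Ebf3* was closest to *Nhlh2* (r = 0.986) and *Chrna3* (r = 0.986), and *Scrt2* to *Myo16* (r = 0.984). *Prox1* was closest to *Stk32a* (r = 0.957), *St18* to *Slc1a2* (r = 0.946) and *Insm1* to *Dll3* (r = 0.964). *Ebf2* had the weakest nearest genes, *F2r* (r = 0.909) and *Rbm24* (r = 0.903). Among the 10 genes themselves, r was 0.989 for *Myt1* with *Scrt2*, 0.925 for *Prox1* with *St18*, 0.004 for *Ebf1* with *Ebf2* and -0.15 for *Ebf2* with *Myt1l*.

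The counting strand was not stated, so reads of a gene and of an antisense partner cannot be told apart. The annotated antisense genes within these genes were low: the highest were Gm45278, within *Ebf3*, at 6.15 CPM, and Prox1os, over *Prox1*, at 1.755 CPM, and the others stayed below 1.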

How the data were processed

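Poly(A) RNA of 21 libraries was profiled. The deposited raw counts of 55400 genes were made by the authors with HTSeq-count, from reads cleaned by Fastp and mapped by Hisat2 to the mm10 build. The deposited FPKM of the authors equals, within 0.005, FPKM computed from those counts, exonic lengths and library totals. No sample column was left unused. Symbols were found for 55140 genes.

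Counts were tested with edgeR 4.0.16 (R 4.3.3) by the quasi-likelihood test, after TMM scaling. Genes were kept by filterByExpr (minimum count 10), and p-values were adjusted by Benjamini-Hochberg across every gene tested. A gene was called at an adjusted p under 0.05. Stage contrasts used the 12 untreated libraries, GSKJ4 contrasts and D4H8+GSKJ4 against D4 their own 6, steps with GSKJ4 9 and differences of effect 18. SE was derived from the fold change and F. Replicates in the labels are separate biological samples. No 2 libraries of a group agreed within sampling noise, since chi-square per gene was 6.44 to 104 over 21 pairs. The largest values were those of D4H8+GSKJ4 replicate 2, at 104 with replicate 1 and 86.1 with replicate 3. Shares of paralogs, and leaving *Ebf4* out of the Ebf sum, were added after seeing the data, with two-sided exact permutation tests (scipy 1.17.1). The code was tested on simulated data. With GSKJ4 at D4H8 it recovered 34% of changes of 1 on the log2 scale and 100% of changes of 2. For the effect at D5 minus D4H8 it recovered 14% and 82%. The simulated spread was below that fitted in these comparisons, so a gene that did not pass the test there may still have changed.

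Alternatives were DESeq2 1.42.0, scaling by RLE or by the upper quartile, the filter dropped or tightened to 10 counts in each library, a block for the replicate number, all 21 libraries fitted together, each library left out, and a pseudocount of 0.1 in place of 1 for mean log2 FPKM. Equal replicate numbers were taken to pair libraries where every correlation of their deviations from the group means was over 0.1. This held for D4 with D4H8 (0.272, 0.235 and 0.459), D4H8 with D5 (0.284, 0.147 and 0.188), D5 with D6 (0.381, 0.263 and 0.355), D6 with D6+GSKJ4 (0.910, 0.662 and 0.801) and D5+GSKJ4 with D6+GSKJ4 (0.514, 0.193 and 0.356). It did not hold for D4 with D5 or D6, or for D4H8+GSKJ4 with D5+GSKJ4 or D6+GSKJ4. The block spanned every library of a fit, such pairs of groups included.

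The 10 genes and the lists were chosen with earlier results of these data known. All 10 are named at each step between neighbouring untreated stages and with GSKJ4 at D4H8. In the other comparisons all 10 are counted but only some are named. Those are mostly genes with a call, a change of call or groups that did not overlap. From each list up to 4 genes of highest mean FPKM are named. *Flt4*, *Pax5* and *Lyve1* fall under this rule or are defining markers, and *Hes5* is named outside it, beside *Hes1*. A listed marker gene is not reported here. For likeness, genes with a mean of at least 10 CPM in a group were ranked, using a prior count of 2.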

Additional observations from a re-analysis of the deposited data

How the results depend on the processing

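The counts of the 10 genes called at the untreated steps stayed within 1.5 times under every alternative that could be run. With 1 library left out they were 9 to 10 for D4H8 against D4, 7 to 8 for D5 against D4H8, 5 to 8 for D6 against D5 and 9 for D6 against D4. For GSKJ4 at D4H8, where edgeR called 1, DESeq2 gave 3, no filter 6, one fit over 21 libraries 3, the replicate block 7, and leaving out 1 library 1 to 4. For D4H8+GSKJ4 against D4, in place of 0, DESeq2 gave 6, no filter 7, one fit 7, the replicate block 6, and leaving out 1 library 0 to 6. Over all genes, edgeR called 175 higher and 165 lower there, and DESeq2 868 and 839. No filter gave 960 and 910, one fit 1444 and 1012, and the replicate block 617 and 657. For D6 against D5 with GSKJ4, in place of 3, no filter gave 6, one fit 5, the replicate block 5, and leaving out 1 library 0 to 4. Over all genes, edgeR called 1247 higher and 810 lower there. No filter gave 1751 and 1359, one fit 2391 and 2196, and the replicate block 1491 and 1052. For GSKJ4 at D6, in place of 0, the block gave 1, where 48 of all genes were called higher and 209 lower. For the difference in GSKJ4 effect at D5 minus D4H8 and at D6 minus D4H8, in place of 0, DESeq2 gave 1 and 1, no filter 4 and 4, the replicate block 1 and 1, and leaving out 1 library 0 to 1 and 0 to 2. Over all genes at D5 minus D4H8, edgeR called 42 higher and 3 lower, DESeq2 158 and 80, no filter 245 and 106 and the block 143 and 42. At D6 minus D4H8 these were 100 and 33, 292 and 290, 414 and 212, and 304 and 187. The cause of these differences was not tested. Same-numbered D4H8 and D4H8+GSKJ4 libraries correlated at 0.486, 0.085 and 0.295, and D5 and D5+GSKJ4 at 0.337, 0.092 and 0.398, so the numbers were not taken to pair them. Over all genes, GSKJ4 at D4H8 gave 343 higher and 301 lower calls with edgeR, 1128 and 837 with DESeq2, 1229 and 1058 with no filter, 1058 and 990 in one fit and 1235 and 1039 with the replicate block.

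Estimates near 0 changed sign. *Ebf2* at D6 against D4 was -0.07 with upper-quartile scaling and -0.22 to 0.33 with 1 library left out, and *Scrt1* with GSKJ4 at D4H8 was -0.38 with the replicate block and -1.53 to 0.56 with 1 left out. With 1 left out, *Insm1* at D5 against D4H8 ran from -0.51 to 0.36, *Myt1* from -0.19 to 0.07 and *Scrt2* from -0.07 to 0.46 at D6 against D5, *Ebf1* with GSKJ4 at D4H8 from -0.64 to 0.04, and *Ebf2* at D4H8+GSKJ4 against D4 from -0.11 to 0.22. None of these was called by edgeR. With the upper quartile as scale, the all-gene median was -0.19 at D6 against D4 and -0.10 at D6 against D5, in place of -0.04 and -0.02. The difference of the mean log2 FPKM of the 10 genes was 1.56 for D4H8 minus D4 and 1.31 for D5 minus D4H8 with a pseudocount of 1, and 2.33 and 1.65 with 0.1. *Myt1l* and *Scrt1* at D4 rest on 5 to 17 counts per library, which limits their folds. *Myt1l* was not tested where at least 10 counts were required in every library.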
